A study of Mus musculus with 8 samples.

Results

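The tripartite motif (TRIM) genes form a large family of mostly ubiquitin ligases, and their transcripts were followed in epithelial cells from the mouse colon, with 4 libraries of wild type mice (WT) set against 4 of mice that carry the label PIM1+/-. PIM1+/- denotes heterozygosity at Pim1, a serine/threonine kinase gene, and both groups were on the C57BL/6J strain. No treatment, age or allele structure is given in the labels, and no Cre or transgene is named. The members were 67 of 55487 genes in the deposited table, those analysed here whose symbol is Trim followed by a number and at most a letter suffix. The values were TPM, the length-corrected share of a gene's transcripts in its library. Read depth cannot be recovered from this unit and is unknown here.

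A TRIM protein typically carries a RING finger, B-box zinc fingers and a coiled coil, followed by a variable C-terminal part that often binds the substrate. The RING finger recruits an E2 enzyme that carries ubiquitin, and the chain that is built can mark a protein for degradation or assemble a signalling complex. Many members are induced by interferons and act on viral proteins or on the sensors, adaptors and kinases of innate immunity, while others serve chromatin, the cytoskeleton or muscle.

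Across the libraries the listed genes summed to 990958 to 992187 TPM, and 12582 to 12850 genes reached 1 TPM. Whether each library stands for its own animal is not in the labels. The p-values therefore speak for the spread among these libraries only, which may be technical. Pim1 itself did not separate the genotypes, with 5.72 to 8.83 TPM in WT and 5.64 to 7.97 TPM in PIM1+/- libraries (limma adjusted p = 0.411), so libraries are called by their labels. The 10 epithelial markers were all above 0 and summed to 11164 to 12202 TPM in WT and 12890 to 14052 TPM in PIM1+/- libraries. Lum, a fibroblast gene, was listed at 0 in all libraries.

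Of the 67 members, 40 reached 1 TPM in at least 4 libraries and were tested with limma on log2(TPM + 1), with Benjamini-Hochberg adjustment over all 12760 genes tested. At an adjusted p of 0.05, 12 rose and 2 fell in libraries labelled PIM1+/-, and 26 did not pass. Those that rose were Trim30a, Trim34a, Trim30d, Trim12a, Trim14, Trim31, Trim12c, Trim40, Trim21, Trim56, Trim26 and Trim36, and those that fell were Trim44 and Trim46. The risers made up 30.0% of the tested members, where 8.93% of all tested genes rose, and the fallers 5.0%, where 8.54% of all tested genes fell. In either direction 17.5% of all tested genes were called. All PIM1+/- libraries lay above all WT libraries for 14 tested members (35.0%, against 11.9% of all tested genes) and below them for 3 (7.5%, against 11.6%). The median log2 fold change (PIM1+/- over WT) of the tested members was 0.02, beside -0.01 for all tested genes. Of the 26 members that did not pass, 19 had a log2 fold change within 0.2 of 0.

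Calls over all genes split 51.1% higher in the deposited scale, 37.9% after upper quartile scaling, and 35.5% after rescaling without mitochondrially encoded genes. The split was 24.8% higher when 16 nuclear copies of mitochondrial genes were left out too, which moved the median of all genes from -0.01 to -0.11. Mitochondrially encoded genes summed to 159650 to 182246 TPM in WT and 124178 to 135706 TPM in PIM1+/- libraries. Of the 12 members that rose, 10 kept their call in each of these 3 scalings, and both that fell kept theirs. The calls that were lost were those of Trim26 and Trim36.

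**Figure D1:**
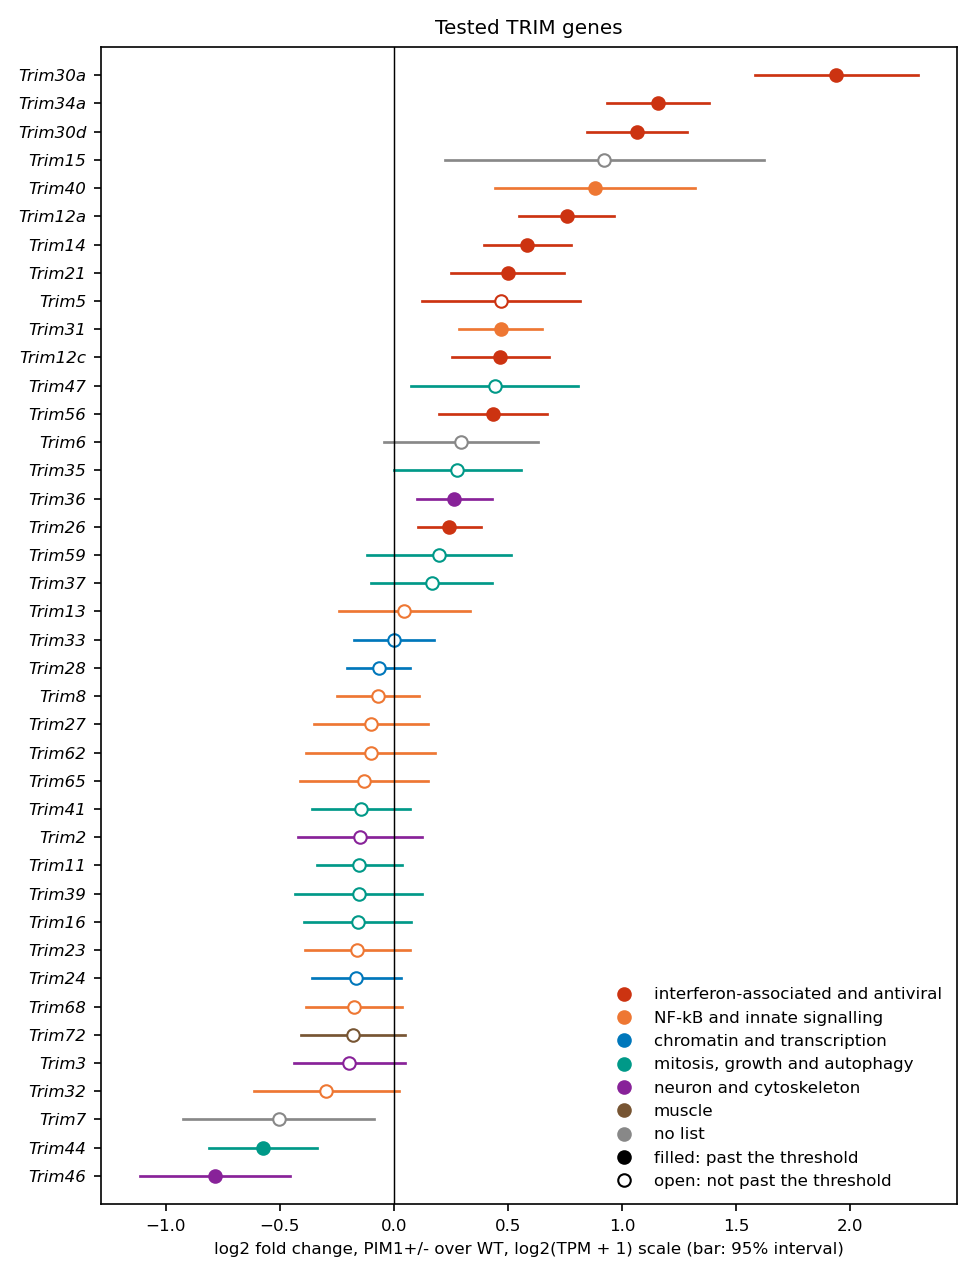
Log2 fold change of the 40 tested TRIM genes (x axis, PIM1+/- over WT on the log2(TPM + 1) scale), with points for the estimates, bars for 95% intervals and colours for the role lists. The interferon-associated genes fill most of the upper part, led by Trim30a at 1.94, and Trim46 at -0.78 lies lowest.

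Of the 12 members that rose, 8 lay in 2 gene clusters. On chromosome 7 (104218793 to 104507849, GRCm38) 10 members lie side by side from Trim6 to Trim30d, of which 7 were tested and 5 rose. On chromosome 17 (36837134 to 36910214) 5 members lie side by side from Trim26 to Trim31, of which 4 were tested and 3 rose. No member in either cluster fell. Of the other genes inside the chromosome 7 span, 8 were in the table and the single tested gene, the predicted gene Gm15133, did not pass (log2 fold change 0.75 ± 0.32 SE, adjusted p = 0.137). The remaining risers, Trim14, Trim21, Trim36 and Trim56, lie on chromosomes 4, 7, 18 and 5. Chromosome 11 holds 10 members, of which 7 were tested and 0 were called. Over all tested genes 8.93% rose, 8.54% fell and 17.5% were called in either direction. The 7 tested genes of chromosome 11 are too few to be set apart from that share.

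The start regions of the members that moved were then read for motifs of interferon signalling. RefSeq promoters (GRCm38.p6, 250 bases before to 50 after a gene's start) were found for 52 of the 67 members and for 10 of the 12 that rose. Trim14 and Trim36 had no entry. They were searched on both strands for a paired GAAA motif, in which 2 copies of GAAA are separated by any 2 bases. This is the core of the interferon-stimulated response element, which ISGF3 and IRF proteins bind. A second search was for TTCNNNGAA, the gamma-activated site that STAT dimers bind. The printed sequences are those of the 4 members of the chromosome 7 cluster with the largest rise, of Trim21, whose gene lies outside it, and, for contrast, of Trim31, which lacks the first motif. All are written 5′ to 3′ on the gene's own strand, and capitals mark each match to the paired GAAA motif, which reads as paired TTTC where it lies on the opposite strand. They are Trim30a at chr7:104465144-104465443, Trim30d at chr7:104507800-104508099, Trim12a at chr7:104315446-104315745 and Trim21 at chr7:102565433-102565732, all minus strand, with Trim34a at chr7:104244207-104244506 and Trim31 at chr17:36897880-36898179, both plus strand.
Trim30a: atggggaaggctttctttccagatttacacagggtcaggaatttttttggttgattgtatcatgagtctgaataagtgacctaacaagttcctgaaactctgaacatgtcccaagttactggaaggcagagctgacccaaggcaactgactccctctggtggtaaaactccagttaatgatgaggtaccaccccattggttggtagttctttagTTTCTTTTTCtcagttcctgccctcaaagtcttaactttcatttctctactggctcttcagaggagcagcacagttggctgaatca
Trim30d: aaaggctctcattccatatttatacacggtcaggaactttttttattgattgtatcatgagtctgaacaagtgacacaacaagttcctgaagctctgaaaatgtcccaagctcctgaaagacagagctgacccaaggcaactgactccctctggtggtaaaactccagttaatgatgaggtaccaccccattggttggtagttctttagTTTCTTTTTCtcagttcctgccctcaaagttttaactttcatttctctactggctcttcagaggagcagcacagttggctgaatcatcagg
Trim12a: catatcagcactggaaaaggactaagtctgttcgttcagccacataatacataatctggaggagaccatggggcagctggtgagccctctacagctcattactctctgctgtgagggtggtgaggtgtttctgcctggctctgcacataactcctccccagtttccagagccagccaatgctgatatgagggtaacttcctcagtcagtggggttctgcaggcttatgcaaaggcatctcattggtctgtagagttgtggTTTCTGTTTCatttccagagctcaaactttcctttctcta
Trim34a: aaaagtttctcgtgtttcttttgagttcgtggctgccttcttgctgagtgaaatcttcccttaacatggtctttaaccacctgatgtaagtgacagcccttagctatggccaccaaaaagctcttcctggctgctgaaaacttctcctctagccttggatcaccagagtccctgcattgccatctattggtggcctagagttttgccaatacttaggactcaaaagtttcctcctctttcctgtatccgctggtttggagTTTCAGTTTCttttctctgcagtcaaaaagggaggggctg
Trim21: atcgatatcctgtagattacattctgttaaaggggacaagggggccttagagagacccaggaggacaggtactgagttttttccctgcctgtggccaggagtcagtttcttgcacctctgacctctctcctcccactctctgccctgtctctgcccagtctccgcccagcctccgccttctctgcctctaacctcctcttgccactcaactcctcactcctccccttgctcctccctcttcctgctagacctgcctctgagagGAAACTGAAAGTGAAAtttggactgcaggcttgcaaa
Trim31: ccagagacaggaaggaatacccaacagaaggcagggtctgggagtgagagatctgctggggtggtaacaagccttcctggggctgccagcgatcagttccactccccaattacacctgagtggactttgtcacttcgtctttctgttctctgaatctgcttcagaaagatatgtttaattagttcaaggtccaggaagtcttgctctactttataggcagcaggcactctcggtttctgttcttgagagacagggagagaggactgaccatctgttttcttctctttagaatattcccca

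Of the 10 promoters of members that rose, 7 held the paired GAAA motif, and all 5 from the chromosome 7 cluster did so. The 7 were those of Trim12a, Trim12c, Trim21, Trim26, Trim30a, Trim30d and Trim34a. Among tested members that did not pass it was in 2 of 19 (10.5%), those of Trim2 and Trim5, and among members that fell it was in 0 of 2. It was in 0 of 21 promoters of members too low to test. The motif was in 3.99% of all 27024 genes with a promoter, in 3.71% of the tested genes and in 10.8% of all genes that rose. TTCNNNGAA was in 1 of the 10 (Trim31), beside 8.25% of the tested genes. The 7 are not independent, because the Trim30a and Trim30d promoters were 93.9% identical over 294 aligned columns, and those of Trim12a and Trim12c were 94.6% identical over 261. In Trim21 a pair of overlapping matches began 13 and 19 bases after the start, and in Trim30a the printed match began 36 bases before it. A match is a run of letters and not a measured binding site.

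The interferon-associated list holds 14 genes with reported induction by interferon or antiviral action. Of its 10 tested members 9 rose, where 8.93% of all tested genes rose, and 0 fell. Trim5 did not pass, and 4 members were too low to test. The median log2 fold change of the tested members was 0.54, beside -0.01 for all tested genes. Their summed level, over all 14, was 131.56 to 137.32 TPM in WT and 205 to 246.92 TPM in PIM1+/- libraries. The list was drawn up with interferon-stimulated genes already known to be higher in these libraries, so it gives no independent support.

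Trim30a, which in mice restrains Toll-like receptor signalling by acting on the TAB2 and TAB3 adaptors, showed the largest change. It was at 5.24, 4.44, 5.05 and 4.62 TPM in the WT libraries (in replicate order, as for every gene that follows) and at 28.60, 19.92, 15.57 and 23.40 TPM in the PIM1+/- libraries. The lowest PIM1+/- library stood well above the highest WT library, and the PIM1+/- libraries also differed more among themselves. The means were 4.84 ± 0.371 and 21.9 ± 5.51 TPM (SD, n = 4 each), a 4.52-fold ratio, with a log2 fold change of 1.94 ± 0.16 (SE, limma adjusted p = 0.000109). Its neighbour and close relative Trim30d stood at 14.82, 14.94, 17.56 and 15.32 TPM in the WT libraries and at 40.40, 33.29, 30.09 and 32.36 TPM in the PIM1+/- libraries. Every PIM1+/- library was above every WT library, and the log2 fold change was 1.07 ± 0.10 (2.17-fold, adjusted p = 0.000196). The adjoining Trim30b and Trim30c did not share this level, with 0.14 to 0.60 and 0.25 to 0.39 TPM of Trim30b in WT and PIM1+/- libraries and at most 0.04 TPM of Trim30c in any library.

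Trim34a, a mouse relative of human TRIM34, had values of 5.40, 5.45, 4.99 and 6.22 TPM in the WT libraries and 15.49, 14.06, 12.04 and 12.65 TPM in the PIM1+/- libraries. The groups were far apart, with the lowest PIM1+/- library at 12.04 TPM and the highest WT library at 6.22 TPM, and the log2 fold change was 1.16 ± 0.10 (2.46-fold, adjusted p = 0.000141). Its copy Trim34b stayed at 0.27 to 0.52 TPM in WT and 0.38 to 0.48 TPM in PIM1+/- libraries, and these ranges overlapped. Trim34a shared 48.6% of its 75-base stretches with other genes, 29.5% with Trim34b and the rest mainly with Gm47248, which overlaps 609 of its exonic bases on the opposite strand. The division of reads among these genes is uncertain.

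Trim12a and Trim12c are mouse relatives of the primate retroviral restriction factor TRIM5. Trim12a stood at 15.41, 16.96, 17.12 and 20.05 TPM in the WT libraries and at 32.05, 29.86, 26.55 and 31.71 TPM in the PIM1+/- libraries. The groups did not overlap, with a log2 fold change of 0.76 ± 0.09 (1.73-fold, adjusted p = 0.00102). Trim12c was lower and moved less, from 8.56 ± 0.937 to 12.2 ± 0.925 TPM (0.47 ± 0.09, adjusted p = 0.0103). Mouse Trim5 had values of 0.81, 0.89, 0.70 and 0.91 TPM in the WT libraries and 2.12, 1.26, 1.10 and 1.76 TPM in the PIM1+/- libraries, without passing the test (0.47 ± 0.15, adjusted p = 0.0633, and 0.0388 without limma's trend). Trim5 could be tested only because it exceeded 1 TPM in the PIM1+/- libraries. Between 5.58% and 20.6% of the 75-base stretches of Trim12a, Trim12c and Trim5 were shared with other genes, mostly with each other.

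**Figure D2:**
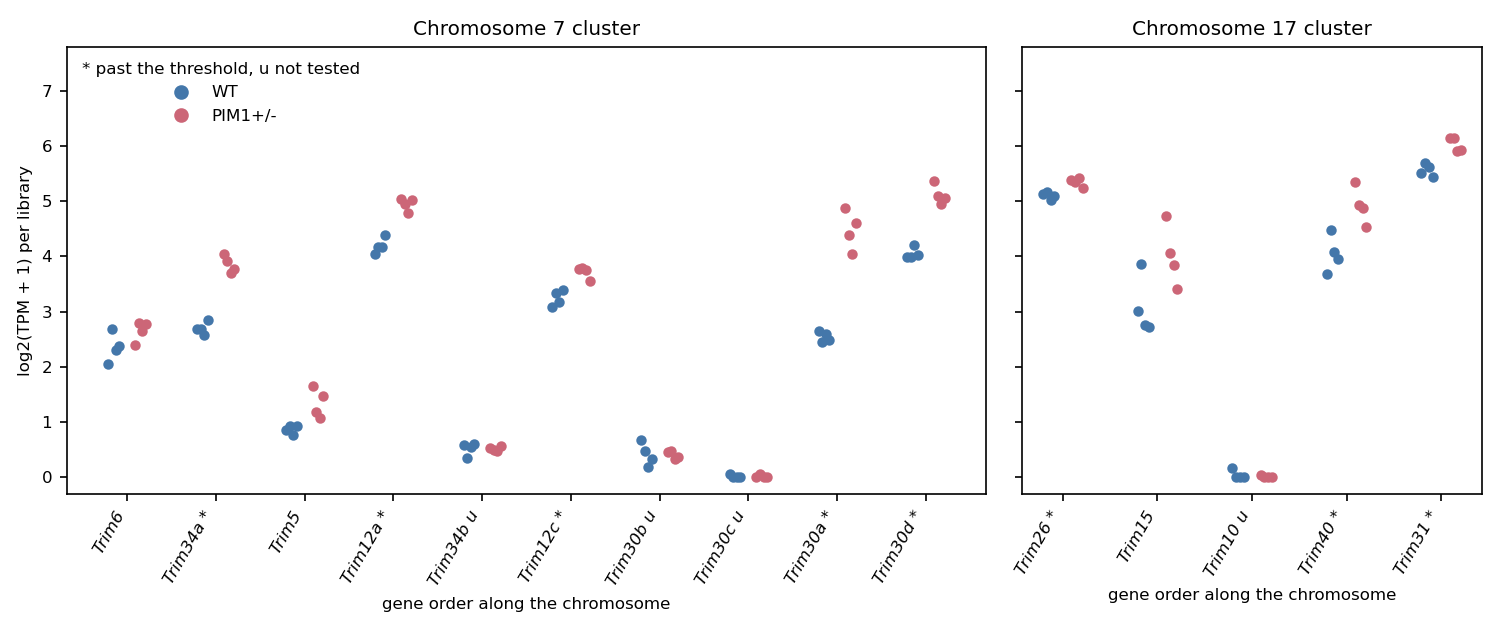
Log2(TPM + 1) in each library (y axis) for the TRIM genes of the chromosome 7 and chromosome 17 clusters in their order along the chromosome (x axis), WT in blue and PIM1+/- in red. Trim34b, Trim30b and Trim30c, near 0 in both genotypes, stand between members whose libraries separate. Trim10, also near 0, stands between Trim15, whose libraries overlap, and Trim40, whose libraries separate.

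Outside that cluster, Trim14, an adaptor without a RING finger that joins MAVS signalling at mitochondria, stood at 28.61, 32.45, 26.11 and 28.70 TPM in the WT libraries and at 43.30, 47.81, 38.95 and 45.82 TPM in the PIM1+/- libraries. The groups did not overlap, and the log2 fold change was 0.59 ± 0.08 (1.52-fold, adjusted p = 0.00247). Its exons overlap on the opposite strand those of Nans, a sialic acid synthesis gene, which fell from 331 ± 37.3 to 257 ± 14.1 TPM (-0.36 ± 0.08, adjusted p = 0.0162). As 28.6% of the 75-base stretches of Trim14 also occur in Nans and the strand setting of the counting is not given, reads of the 2 genes may not be fully told apart.

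Trim21, a cytosolic antibody receptor that sends antibody-coated viruses to the proteasome, went from 6.97 ± 1.07 to 10.2 ± 0.849 TPM (0.50 ± 0.11, adjusted p = 0.0158). WT replicate 3, at 8.33 TPM, came nearest to the PIM1+/- libraries, whose lowest was 9.09 TPM. Trim56, a ligase linked to the DNA sensing pathway through STING, went from 11.5 ± 0.883 to 16.04 ± 2.31 TPM (0.44 ± 0.11, adjusted p = 0.0221). The call of Trim56 was lost without WT replicate 2 (adjusted p = 0.0503), without WT replicate 4 (0.0561) and with no filter on low values (0.0549). Of this list Trim38, which restrains TNF and Toll-like receptor signalling, was too low to test, at 0.10 to 0.27 TPM in WT and 0.09 to 0.53 TPM in PIM1+/- libraries.

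In the chromosome 17 cluster 3 genes rose, and their neighbour Trim15 varied widely. Trim31, a gut-expressed ligase that acts on MAVS and on the inflammasome protein NLRP3, was the most abundant member that rose. It had values of 44.51, 50.63, 48.59 and 42.56 TPM in the WT libraries and 69.99, 69.99, 59.63 and 59.77 TPM in the PIM1+/- libraries, a log2 fold change of 0.47 ± 0.08 (1.39-fold, adjusted p = 0.00557). The groups did not overlap. Trim40, a gastrointestinal member that restrains NF-kB signalling, stood at 11.80, 21.23, 15.94 and 14.46 TPM in the WT libraries and at 39.72, 29.55, 28.56 and 22.28 TPM in the PIM1+/- libraries. The highest WT library came within about 1 TPM of the lowest PIM1+/- library, and the log2 fold change was 0.88 ± 0.19 (1.89-fold, adjusted p = 0.0156). With no filter on low values Trim40 had an adjusted p of 0.052.

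Trim26, linked to IRF3 turnover, had values of 34.11, 34.84, 31.36 and 33.39 TPM in the WT libraries and 40.94, 39.70, 41.75 and 36.75 TPM in the PIM1+/- libraries. The difference was small, with a ratio of 1.19 and a log2 fold change of 0.24 ± 0.06 (adjusted p = 0.0257). The Trim26 call was lost without WT replicate 1, 3 or 4 (adjusted p = 0.0571, 0.0625 and 0.0597) and without PIM1+/- replicate 1, 2 or 3 (0.0588, 0.0568 and 0.0692). Trim15, a focal adhesion protein encoded between Trim26 and Trim40, did not pass. It stood at 7.02, 13.48, 5.80 and 5.63 TPM in the WT libraries and at 25.52, 15.63, 13.37 and 9.69 TPM in the PIM1+/- libraries, with WT replicate 2 inside the PIM1+/- range (0.92 ± 0.31, adjusted p = 0.071). Without WT replicate 2 Trim15 had an adjusted p of 0.0224, and without PIM1+/- replicate 4 it had 0.0419.

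**Figure D3:**
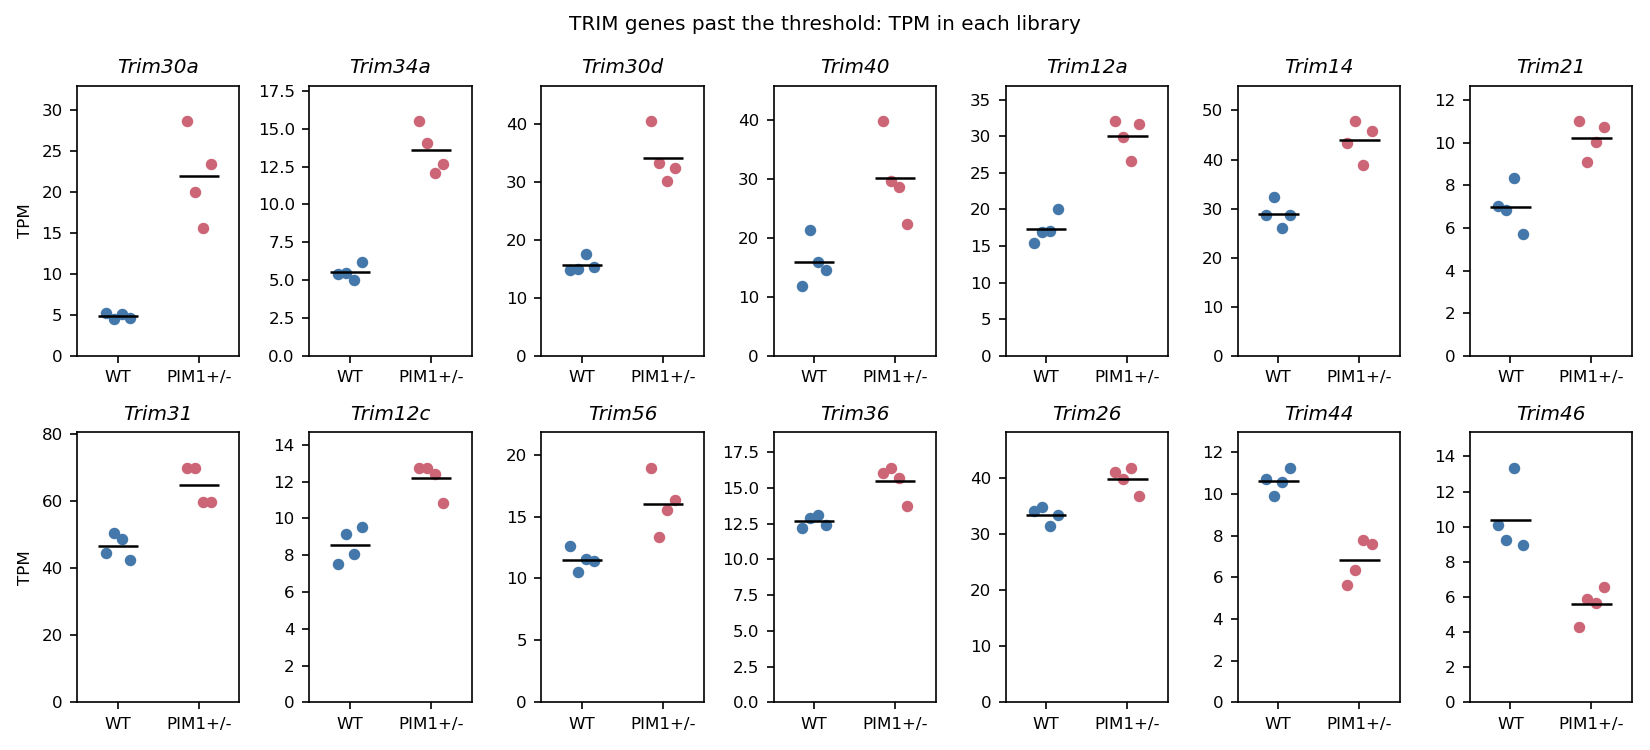
TPM in each library (y axis, from 0) for the 14 TRIM genes past the threshold, one panel a gene, with points for libraries in replicate order and lines for the means of n = 4. In every panel the 2 genotypes do not overlap, with 12 genes higher and Trim44 and Trim46 lower in PIM1+/- libraries.

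Trim31 and Trim40 were the 2 members that rose on the list of NF-kB and innate signalling genes, where 10 of 11 were tested, 0 fell and the median was -0.10. Beside this, 8.93% of all tested genes rose and 8.54% fell, and 10 genes are too few to be set apart from those shares. The other 8 tested members of that list, Trim8, Trim13, Trim23, Trim27, Trim32, Trim62, Trim65 and Trim68, had log2 fold changes between -0.30 and 0.05. Trim27, a ligase that works at endosomes, was the most abundant of them at 26.2 ± 2.04 and 24.6 ± 3.63 TPM (-0.10 ± 0.11, adjusted p = 0.573).

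The members that fell were Trim46 and Trim44. Trim46, which in neurons bundles microtubules at the start of the axon, had values of 10.08, 9.23, 13.36 and 8.95 TPM in the WT libraries and 4.32, 5.88, 5.65 and 6.59 TPM in the PIM1+/- libraries. The groups did not overlap, and the log2 fold change was -0.78 ± 0.15 (ratio 0.539, adjusted p = 0.00766). Exons of Trim46 overlap those of Krtcap2 on the opposite strand over 239 bases, and 4.27% of its 75-base stretches also occur there. Krtcap2 stood at 68.7 ± 9.39 TPM in WT and 77.9 ± 9.64 TPM in PIM1+/- libraries and did not pass (adjusted p = 0.303). As the strand setting is not given, reads of these genes may not be fully told apart. Trim44, which lacks a RING finger and carries a zinc finger of the ubiquitin hydrolase type, stood at 10.69, 9.89, 10.58 and 11.25 TPM in the WT libraries and at 5.62, 6.37, 7.79 and 7.60 TPM in the PIM1+/- libraries. Every PIM1+/- library was lower than every WT library (-0.57 ± 0.10, ratio 0.646, adjusted p = 0.00708). Both calls were kept whichever library was left out.

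Trim36, a microtubule-associated ligase of the same structural class as Trim46, rose slightly from 12.7 ± 0.406 to 15.4 ± 1.2 TPM (0.27 ± 0.07, adjusted p = 0.037). Its call was lost when any single WT replicate was left out (adjusted p = 0.0984, 0.0578, 0.0592 and 0.086 for replicates 1 to 4) and without PIM1+/- replicate 1, 2 or 3 (0.0833, 0.0894 and 0.0845). On the neuron and cytoskeleton list 4 of 6 were tested, of which 1 rose and 1 fell (median -0.17). On the list for mitosis, growth and autophagy 9 of 11 were tested, of which 0 rose and 1, Trim44, fell (median -0.14). Both lists are too small to be set apart from all tested genes, of which 8.93% rose and 8.54% fell.

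The most abundant member, Trim28, did not pass. Trim28 (KAP1) is the corepressor that zinc finger proteins recruit to silence retroelements, and it had values of 93.64, 100.41, 97.16 and 104.11 TPM in the WT libraries and 101.01, 86.26, 96.80 and 93.57 TPM in the PIM1+/- libraries. The groups overlapped, and the log2 fold change was -0.07 ± 0.06 (95% interval -0.20 to 0.07, adjusted p = 0.491). The related chromatin readers Trim24 (-0.17 ± 0.09) and Trim33 (0.00 ± 0.08, 95% interval -0.18 to 0.18) did not pass either, so 0 of 3 tested genes on the chromatin list were called. As 17.5% of all tested genes were called in either direction, 3 genes are too few to be set apart from that share.

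Trim2, which in neurons controls neurofilament light chain, stood at 57.09, 45.78, 64.84 and 57.46 TPM in the WT libraries and at 41.74, 51.73, 57.63 and 51.62 TPM in the PIM1+/- libraries, with overlapping groups (-0.15 ± 0.12, adjusted p = 0.44). Trim16, a member without a RING finger that is linked to autophagy, had values of 40.98, 40.63, 40.55 and 48.09 TPM in the WT libraries and 30.63, 40.13, 40.30 and 41.68 TPM in the PIM1+/- libraries (-0.16 ± 0.10, adjusted p = 0.325). A single library stood apart in each group of Trim16. Trim7, known for binding glycogenin, was among the largest changes that did not pass, with 5.04, 2.39, 3.10 and 3.31 TPM in the WT libraries and 1.86, 2.81, 1.79 and 1.93 TPM in the PIM1+/- libraries (-0.51 ± 0.19, adjusted p = 0.0925, and 0.0495 without WT replicate 2). Of the 26 members that did not pass, 18 had a 95% interval that lay within 0.5 of 0, and 17 had a negative and 9 a positive estimate.

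By summed level the family took 616 to 646 TPM in WT and 718 to 769 TPM in PIM1+/- libraries. Members that rose added 124 TPM between the means, members that fell took away 8.55 TPM, and those that did not pass together changed by -18.4 TPM. The largest gains were those of Trim30d (18.4 TPM) and Trim31 (18.3 TPM), followed by Trim30a, Trim14, Trim40 (14.2 TPM) and Trim12a (12.7 TPM).

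A further 27 members were too low to test. Of these 20 had a mean under 0.1 TPM, among them 5 with no value above 0 in any library. The 5 were Trim54, Trim55 and Trim63, which belong to striated muscle, with Trim60 and Trim75. Of the 4 genes on the muscle list Trim72, a membrane repair protein, was the sole tested member and did not pass (6.01 ± 0.733 and 5.17 ± 0.389 TPM). The highest of the untested members were Trim45 (0.65 to 1.57 TPM over all libraries), Trim34b, Trim30b, Trim29, Trim38, Trim17, Trim9, Trim43c, Trim69 and Trim43a. Trim29, a member found in stratified and airway epithelia, had 0.12 to 0.28 TPM in WT and 0.28 to 0.61 TPM in PIM1+/- libraries.

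By structure, 6 of 20 tested members listed with a C-terminal PRY-SPRY domain rose and 0 fell. Each member was put in a single class, and members of other classes can carry this domain too. The count is therefore not one over all carriers of the domain. The counts called were 0 of 3 for members with a PHD finger and bromodomain, 0 of 3 for those with NHL repeats and 0 of 2 for those with a transmembrane segment. Over all tested genes 8.93% rose and 8.54% fell, and 30.0% of the tested members rose. Classes of this size are too small to be set apart from those shares. Of the 2 tested members with a COS box 1 rose and 1 fell, and of the 10 listed with another C-terminal part or without a RING finger 5 rose and 1 fell. Trim14, which rose, and Trim16, which did not pass, are in that last class because they lack a RING finger, although both carry a PRY-SPRY domain.

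The libraries of a genotype were not alike. For 8 of the 12 members that rose, PIM1+/- replicate 1 was the highest library of its group (66.7%), beside 63.7% of all genes that rose. Leaving out this library kept 10 of the 12 calls and both calls of lower members. Trim30a then had a log2 fold change of 1.81, and Trim34a one of 1.10.

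Markers of immune cells moved with the same contrast. Of 14 markers of T, NK and intraepithelial lymphocytes 11 were tested and 9 rose, where 8.93% of all tested genes rose. The 14 summed to 16.22 to 29.41 TPM in WT and 50.31 to 116.85 TPM in PIM1+/- libraries. Among the 9, Cd8a and Itgae could be tested only through their PIM1+/- libraries, since both were under 1 TPM in all WT libraries. Cd3e (0.73 to 1.19 TPM in WT), Gzmb (0.43 to 1.18) and Nkg7 (0.66 to 1.35) also needed their PIM1+/- libraries to be tested. Cd8b1 was at 0 in some libraries, and Ptprc and Cd3e were above 0 in all. Of 14 myeloid and mast cell markers 6 were tested and 3 rose. The 14 summed to 27.78 to 35.28 TPM in WT and 50.4 to 64.99 TPM in PIM1+/- libraries. Most of that sum was Cd14, at 23.3 to 27.57 TPM in WT and 33.92 to 45.71 TPM in PIM1+/- libraries. C1qb, Adgre1, Cx3cr1, Tyrobp and S100a8 were at 0 in some libraries. Of the 3 myeloid and mast cell markers that rose, Mcpt1 was likewise under 1 TPM in all WT libraries. C1qa, at 0.25 to 1.05 TPM in WT, also needed its PIM1+/- libraries to be tested. B and plasma cell markers summed to 4.28 to 14.5 and 8.28 to 13.49 TPM with 0 of 2 tested genes called. The 8 fibroblast markers summed to 1.66 to 2.4 and 7.32 to 17.74 TPM, and this rests on Fn1 and Fbln1, which rose. Fn1 was at 0.30 to 0.90 TPM in WT and could be tested only through the PIM1+/- libraries. Fbln1, at 0.87 to 1.14 TPM in WT, needed them too. The other 6 were too low to test, with Col1a1 at a mean of 0.0325 and 0.04 TPM and Lum at 0. Endothelial markers summed to 3.55 to 5.76 and 3.22 to 4.2 TPM with 0 of 2 called, smooth muscle markers to at most 1.38 TPM and neuron and glia markers to at most 5.24 TPM, with none high enough to test.

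Within the PIM1+/- group the lymphocyte sum was highest in replicate 4 and lowest in replicate 2, whereas the summed interferon-associated TRIM level was highest in replicate 1 and lowest in replicate 3. Single lymphocyte markers that rose differed in this. Gzma and Gzmb were highest in replicate 1, Ptprc, Cd3e and Cd7 in replicate 3, and Cd8a, Nkg7, Ccl5 and Itgae in replicate 4. The fibroblast sum, at 17.74, 8.78, 7.32 and 9.8 TPM in PIM1+/- replicates 1 to 4, had the same order of libraries as the TRIM sum, at 246.92, 222.03, 205 and 223.26 TPM. It is mostly Fn1 (9.31, 4.89, 2.87 and 3.67 TPM) and Fbln1 (6.26, 3.68, 3.68 and 5.03 TPM). Fn1 alone did not have that order, and Fbln1 was equal in replicates 2 and 3. The match was picked out from several marker lists and was not tested. A mean score over the 23 tested non-epithelial markers ran from 1.22 to 1.59 in WT and from 2.09 to 2.54 in PIM1+/- libraries. Many of these markers were themselves called higher, and several could be tested only through their PIM1+/- libraries. The score separated the genotypes by itself, as this choice of markers favoured, and its correlation with genotype was 0.952. With that score as a covariate limma called 0 of all 12760 genes, and so 0 members in either direction, with 5 members higher and 2 lower at an unadjusted p under 0.05, where 16 and 3 met it without the covariate. The log2 fold change was then 1.96 ± 0.55 for Trim30a (1.94 ± 0.16 without the score), 1.32 ± 0.32 for Trim30d (1.07 ± 0.10), 1.10 ± 0.34 for Trim34a (1.16 ± 0.10) and 0.88 ± 0.24 for Trim31 (0.47 ± 0.08). It was 0.12 ± 0.35 for Trim56 (0.44 ± 0.11) and -0.28 ± 0.47 for Trim46 (-0.78 ± 0.15). All 14 called members kept their sign, with larger standard errors. With a score this close to genotype the fit cannot tell the score from genotype, and its fold changes do not decide between them. The part of other cell types in these results was not tested. In such bulk samples more cells of a type and more RNA per cell cannot be told apart. Of the epithelial markers, 6 of 10 rose and 0 fell, where 8.93% of all tested genes rose and 8.54% fell. The ratios of the 6 ran from 1.13 (Cldn7) to 1.53 (Krt20). These calls are those of the deposited scale, and whether they hold in the other scalings was not tested.

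**Figure D4:**
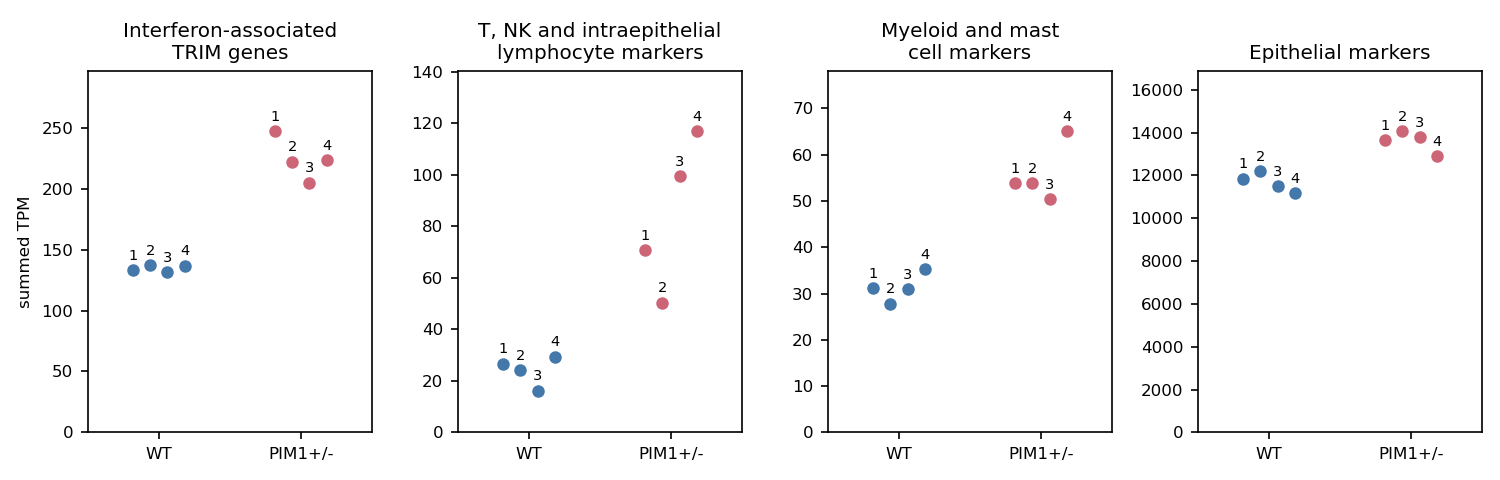
Summed TPM per library (y axes, from 0, different scales) of the 14 interferon-associated TRIM genes and of 3 marker lists, WT in blue and PIM1+/- in red, with numbers for replicates. The TRIM sum is 205 to 246.92 TPM in PIM1+/- libraries against 131.56 to 137.32 TPM in WT, and the order of the PIM1+/- libraries differs between the panels. Cd14 makes up most of the myeloid and mast cell sum.

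The wider ubiquitin and innate signalling lists are read against the 8.93% of all tested genes that rose and the 8.54% that fell. Of 15 ubiquitin E1 and E2 enzyme genes, all tested, Uba1 rose, the main ubiquitin-activating enzyme, from 119 to 134 TPM (0.18 ± 0.05, adjusted p = 0.0346), and 0 fell. That call was lost when any library but PIM1+/- replicate 3 was left out, and in all 3 scalings named above, where 1, 1 and 2 genes of the list fell. Among the 4 ubiquitin genes 0 were called. Of 15 innate signalling partners, all tested, Nod2, a sensor of bacterial muramyl dipeptide, rose from 0.75 to 2.0 TPM (0.76 ± 0.18, adjusted p = 0.0199), as did Vcp, an unfolding ATPase (0.23 ± 0.06, adjusted p = 0.0326). Nod2, at 0.51 to 1.01 TPM in WT, could be tested only through its PIM1+/- libraries. Among those that did not pass, Mavs was at -0.18 ± 0.07 and Sting1 at 0.31 ± 0.16. Only 1 gene of this list rose when PIM1+/- replicate 3, or any WT library other than replicate 2, was left out, and likewise without the trend and after both rescalings without mitochondrially encoded genes. With no filter on low values 0 rose. In the 3 scalings 1, 1 and 3 of its genes fell. Of 7 corepressor partners of Trim28, such as Setdb1 (-0.20 ± 0.07, adjusted p = 0.0855), 0 were called, whereas 1, 2 and 2 fell in the 3 scalings and 1 fell without PIM1+/- replicate 2.

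Of 6 listed relatives that carry other symbols, 3 were tested, of which 1 rose and 1 fell. That is too few to be set apart from the 17.5% of all tested genes that were called in either direction. Pml, which builds PML nuclear bodies and is interferon-inducible, rose from 12.8 to 20.7 TPM (0.65 ± 0.11, adjusted p = 0.00557). Mid1, a microtubule-bound ligase, fell from 10.3 to 8.02 TPM (-0.32 ± 0.09, adjusted p = 0.043), a call that was lost when any library but WT replicate 1 was left out. Mid2 did not pass (-0.09 ± 0.08, adjusted p = 0.466), and Mefv, Cmya5 and Rnf207 were too low to test.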

How the data were processed

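RNA of colon epithelial cells was extracted with TRIzol, per the labels' protocols. The authors deposited TPM per gene, which the series' design text ascribes to RSEM. HISAT2, StringTie, edgeR and the build GRCm38.p6 stand in the submitters' processing notes with no version. The sources used here give no annotation, strand setting, filter or read depth. All 8 columns were matched to samples by genotype and replicate number, and 0 were left out.

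Two-sided limma 3.58.1 fits (R 4.3.3) compared log2(TPM + 1) by genotype, using empirical Bayes with a trend. Genes had to reach 1 TPM in 4 or more of the 8 libraries, which left 12760. Calls were made at a Benjamini-Hochberg adjusted p of 0.05. The script was tested on simulated data. Exact permutation of single genes cannot give a p below 0.0286 (two-sided, 4 against 4), a value that all 14 called members reached, as did Trim3, Trim5 and Trim47. Positions and 75-base stretches shared between genes came from GENCODE M21 (GRCm38), where all 67 members were found, and nuclear copies of mitochondrial genes from BLAST+ 2.17.0 (90% identity over 80% of the length). The listed Tmem173 was matched as Sting1. A gene of the same symbol form is not reported here. The members, role, class, pathway and marker lists and tests were chosen with earlier results of these data known. Named with values in each library were called members with a log2 fold change of at least 0.5 in size, the 5 most abundant and the 3 largest that did not pass. Trim31, Trim26 and the untested genes beside the risers are given likewise. Nans, Gm15133 and Krtcap2 were chosen after their values were seen. Figures were drawn with matplotlib 3.10.9.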

Additional observations from a re-analysis of the deposited data

Results flagged for a closer look

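Each genotype group of each tested member was searched for a library whose gap to the nearest other exceeded the 95% bound of Dixon's test for 4 values, as a share of the group's range. Chance passes about 1 in 20 such groups, and 80 were searched. In WT libraries, Trim3 stood at 8.7 TPM in replicate 1, where the others held 6.34 to 6.44 TPM. Trim16 stood at 48.09 TPM in WT replicate 4, with 40.55 to 40.98 TPM in the others. In PIM1+/- libraries, Trim16 was low in replicate 1 at 30.63 TPM, against 40.13 to 41.68 TPM. Trim27 was low in replicate 2 at 19.18 TPM, where the others held 25.84 to 27.21 TPM, and Trim7 was high there at 2.81 TPM, against 1.79 to 1.93 TPM. Trim68 was high in PIM1+/- replicate 3 at 8.53 TPM, with 6.67 to 6.8 TPM in the others. Trim12c was low in replicate 4 at 10.82 TPM, where the others held 12.44 to 12.76 TPM, still above the highest WT value of 9.52 TPM. Of these genes Trim12c alone was called between the genotypes.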

How the results depend on the processing

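Beside 12 higher and 2 lower members, leaving out single libraries gave 9 to 13 higher and 2 to 3 lower. The adjusted p threshold of 0.01 gave 6 higher and 2 lower, and the non-epithelial marker score as covariate 0 and 0. That score was built from tested markers, several of which could be tested only through their PIM1+/- libraries. It separated the genotypes by itself, and with it 0 of 12760 genes were called, so this fit cannot tell the score from genotype. Fold changes of called members kept their sign, some as large (Trim30a 1.96, Trim30d 1.32) and some smaller (Trim56 0.12, Trim46 -0.28). The numbers were 9 and 2 with no filter, 13 and 2 without the trend, 12 and 2 with genes under a mean of 5 TPM dropped or a pseudocount of 0.1, and 10 and 2 in each rescaling, of which the one without nuclear copies was chosen after the data were seen. With the replicate number as a block they were 10 and 2. Same-numbered libraries did not deviate together (correlations of deviations -0.136, 0.032, -0.0332 and -0.0711, and 0 of 4 libraries correlated best with their own number). No pairing by number was thus seen, and the labels do not say whether the numbers mark pairs. With the block 1 innate signalling partner rose in place of 2, Uba1 lost its call, and Mid1 did so too. Over all genes the block gave 760 higher and 689 lower calls, against 1139 and 1090. No called member changed direction in any alternative run. Trim30a, Trim34a, Trim30d, Trim12a, Trim14, Trim31, Trim12c, Trim21, Trim44 and Trim46 kept their calls in all but the covariate fit among alternatives at the 0.05 threshold. The cause of each lost call was not tested. As TPM keeps no depth, the counting error of low members cannot be given.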
